A study of Homo sapiens with 12 samples.

Results

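The transcripts of 9 genes that copy, write, remove or read DNA methylation, or open chromatin for it, were followed in Calu-3 cells, a human airway epithelial cell line. They are HELLS, UHRF1, DNMT1, DNMT3A, DNMT3B, TET1, TET2, TET3 and MBD2, 9 of 18417 genes with a named probe set. The genes were listed by name, and HELLS was picked on its lower level with SIN3A siRNA in these same arrays. Its values in that comparison are therefore a description with no test. The other 8 genes were tested.

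The arrays fell into 3 groups. In 3 of them the cells had received an siRNA against SIN3A, a scaffold protein of histone deacetylase complexes. In another 3 they had received a miR-138 mimic, a synthetic copy of that microRNA. The remaining 6 arrays held cells with NC1, labelled as a scrambled control. All cells were transfected with lipofectamine RNAiMAX and RNA was taken with TriZOL. All groups are of the same line, so each result describes transfected Calu-3 cells only. The labels call the replicates biological, while the extraction note speaks of primary cultures. The sources used here give neither doses nor the time from transfection to harvest.

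In mammals, DNMT1 copies CpG methylation onto the new strand behind the replication fork, and UHRF1 brings it to hemimethylated sites. DNMT3A and DNMT3B methylate unmodified sites, the TET enzymes oxidise 5-methylcytosine as a first step of its removal, and MBD2 binds methylated CpG and recruits the NuRD deacetylase complex. HELLS, also called LSH, is an SNF2-family ATPase that is brought to nucleosomes by CDCA7 and is needed for methylation of repeats in heterochromatin. Inherited loss of HELLS, CDCA7, ZBTB24 or DNMT3B gives the immunodeficiency ICF syndrome.

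The promoter windows of HELLS, CDCA7 and DNMT1 are shown because HELLS and CDCA7 had lower levels with the siRNA while DNMT1, with which they act, did not pass the test. Each window runs from 250 bases before to 50 bases after the gene start in RefSeq's GRCh38.p14 annotation, 5′ to 3′ on the gene's strand. HELLS lies at chr10:94545538-94545837 on the plus strand, CDCA7 at chr2:173354622-173354921 on the plus strand and DNMT1 at chr19:10194904-10195203 on the minus strand. Capitals mark matches to the E2F-type motifs TTTCCCGC, TTTGGCGC, TTTCGCGC and TTTGCCGC, which were searched on both strands.

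HELLS: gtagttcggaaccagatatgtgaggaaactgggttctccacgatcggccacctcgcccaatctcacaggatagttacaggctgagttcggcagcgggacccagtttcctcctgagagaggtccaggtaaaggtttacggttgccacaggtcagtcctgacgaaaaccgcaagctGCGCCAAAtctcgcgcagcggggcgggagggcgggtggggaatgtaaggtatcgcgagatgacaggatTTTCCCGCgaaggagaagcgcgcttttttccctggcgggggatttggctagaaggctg

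CDCA7: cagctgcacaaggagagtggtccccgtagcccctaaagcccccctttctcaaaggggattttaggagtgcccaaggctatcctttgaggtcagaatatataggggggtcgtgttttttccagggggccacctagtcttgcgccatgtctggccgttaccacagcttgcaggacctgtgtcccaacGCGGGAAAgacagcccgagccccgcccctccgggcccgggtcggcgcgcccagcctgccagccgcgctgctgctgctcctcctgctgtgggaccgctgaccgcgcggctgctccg

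DNMT1: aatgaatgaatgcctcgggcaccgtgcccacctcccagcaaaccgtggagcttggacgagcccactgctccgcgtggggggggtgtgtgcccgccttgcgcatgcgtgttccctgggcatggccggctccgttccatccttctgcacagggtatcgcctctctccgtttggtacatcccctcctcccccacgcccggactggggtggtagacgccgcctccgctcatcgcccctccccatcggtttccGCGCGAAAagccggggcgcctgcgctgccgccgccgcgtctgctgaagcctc

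HELLS had 2 matches, GCGCCAAA and TTTCCCGC, while CDCA7 had GCGGGAAA and DNMT1 GCGCGAAA. UHRF1 also had a match, so 3 of the 9 genes matched, against 3.99% of the 27305 genes in the table and 3.31% of its 35116 windows. A match in a window is a description of its letters, and neither binding nor methylation was measured. The HELLS window held 22 CpG dinucleotides, the CDCA7 window 20 and the DNMT1 window 30, against a median of 14 over all windows. Below that median lay the windows of DNMT3B (3) and TET1 (10, 6 and 11) and a window of TET2 (13). The remaining windows of the 9 genes lay above it.

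The mature miR-138-5p of RefSeq is shown because it is the main arm of the microRNA that was mimicked. It is encoded at chr3:44114234-44114256 and chr16:56858527-56858549, both on the plus strand. The labels do not say which arm the mimic carried, and capitals mark the seed, bases 2 to 8.

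miR-138-5p: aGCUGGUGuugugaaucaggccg

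All values are log2 levels of 1 probe set per gene, as the authors deposited them, and array medians lay between 5.09 and 5.16. Levels of different genes come from different probes, so levels of markers and lists are a rough description. Differences in level between genes were not tested. SIN3A itself, the target of the siRNA, had levels of 6.17, 5.88 and 6.03 in siRNA arrays and of 5.93, 6.05 and 6.25 in mimic arrays. Its NC1 levels were 6.79, 6.71 and 6.36 in arrays 1 to 3 and 7.34, 7.16 and 7.11 in arrays 4 to 6. Its log2 difference from NC1 was -0.88 with the siRNA (limma adjusted p = 0.0111), or -0.59 with NC1 1 to 3 and -1.18 with NC1 4 to 6 taken alone. With the mimic it was -0.83 (limma adjusted p = 0.0304), or -0.54 with NC1 1 to 3 and -1.13 with NC1 4 to 6. The siRNA call was lost without siRNA array 2 or 3 (adjusted p up to 0.0725), the mimic call without any 1 mimic array, any 1 siRNA array or NC1 array 6 (up to 0.202). With only the arrays compared the mimic call was also lost (limma adjusted p = 0.088), while the siRNA call was kept (0.0327). Both calls were kept against NC1 1 to 3 alone (limma adjusted p of 0.0104 for the siRNA and 0.0113 for the mimic). They were also kept against NC1 4 to 6 alone (1.24e-05 and 4.27e-05) and with the array set, described below, as a block (0.0104 and 4.27e-05). Of 14 epithelial markers 12 were measured, all with a mean level of at least 5, from ELF3 at 5.87 to EPCAM at 10.7. CFTR was the 1 that passed the test with the siRNA (log2 difference -1.34, limma adjusted p = 0.000203). The fibroblast, leukocyte and endothelial markers had median mean levels of 4.60, 4.92 and 4.41, and their lowest were LUM at 2.54, PTPRC at 2.93 and TEK at 3.55. Of the 12 fibroblast markers 4 had a mean level of at least 5, DES at 6.19, COL1A1 at 6.05, COL1A2 at 5.33 and COL3A1 at 5.23. Of the 10 endothelial markers 3 did, EGFL7 at 6.41, CLDN5 at 5.79 and ROBO4 at 5.35. Of the 11 measured leukocyte markers 4 had a mean level of at least 5, LYZ at 8.69, CD68 at 6.96, TYROBP at 6.40 and NKG7 at 6.12. None of the fibroblast, leukocyte or endothelial markers passed the test against NC1 with either treatment. The share of all genes that passed was 4.01% with the siRNA and 1.04% with the mimic.

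The 6 NC1 arrays did not form 1 even group. NC1 4 to 6 lay apart from NC1 1 to 3, without overlap in either direction, in 22.4% of all genes. The labels do not say what separates them. Values relative to NC1 1 to 3 and to NC1 4 to 6 are therefore given beside the main ones for the genes where they lay far apart. A fit with the array set as a block placed the siRNA arrays with NC1 1 to 3 and the mimic arrays with NC1 4 to 6. This pairing was assumed: it follows the order in which the samples are listed, and the labels do not state it. In that fit the siRNA difference is the one against NC1 1 to 3 and the mimic difference the one against NC1 4 to 6.

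HELLS was lower in every siRNA array than in any other array. Its levels were 4.88, 4.90 and 4.63 in siRNA arrays and 5.40, 5.43 and 5.51 in mimic arrays. The NC1 arrays had 5.68, 5.57 and 5.36 in the set of arrays 1 to 3 and 6.59, 6.61 and 6.51 in the set of arrays 4 to 6. The order of the means was thus siRNA, mimic, NC1 1 to 3 and NC1 4 to 6, and the mimic arrays overlapped with NC1 1 to 3 but not with the other sets.

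HELLS averaged 4.80 ± 0.15 in siRNA arrays (SD, n = 3) and 6.05 ± 0.57 in NC1 arrays (SD, n = 6). The log2 difference was -1.25 (SE 0.25), or 42.0% of the NC1 level on the linear scale. Relative to NC1 1 to 3 it was -0.74 and relative to NC1 4 to 6 -1.76, and it lay between -1.39 and -1.14 when 1 array was left out at a time. These are the values that chose the gene, and they carry no test. In bulk RNA, fewer cells that make a transcript and less of it per cell cannot be told apart.

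HELLS averaged 5.45 ± 0.06 in mimic arrays (SD, n = 3), against the same 6 NC1 arrays. The log2 difference of -0.61 (SE 0.25, 95% interval -1.14 to -0.08) did not pass the test over all genes (limma adjusted p = 0.348). The same NC1 arrays entered the choice of HELLS, so this is no independent test, and the values by NC1 set are a description. They were -0.09 for NC1 1 to 3 and -1.12 for NC1 4 to 6, as in the block fit. The size of the mimic difference thus depended on which 3 NC1 arrays it was set against. Mimic minus siRNA was 0.64, while the block fit, which takes the difference of the 2 within-set changes, gave -0.39.

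The 2 sets of NC1 arrays themselves differed for HELLS by 1.03 (NC1 4 to 6 minus NC1 1 to 3), a larger gap than in 99.5% of genes. Within the 4 sets of 3 arrays its pooled SD was 0.12, close to the median gene's 0.13. Over all 12 arrays its SD was 0.67, against 0.15 for the median gene. In these values the spread of HELLS lay between sets more than among the arrays of 1 set. The siRNA and NC1 arrays entered the choice of HELLS, so its place among all genes in this gap and SD is a description. Nothing further is read from it.

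**Figure D1:**
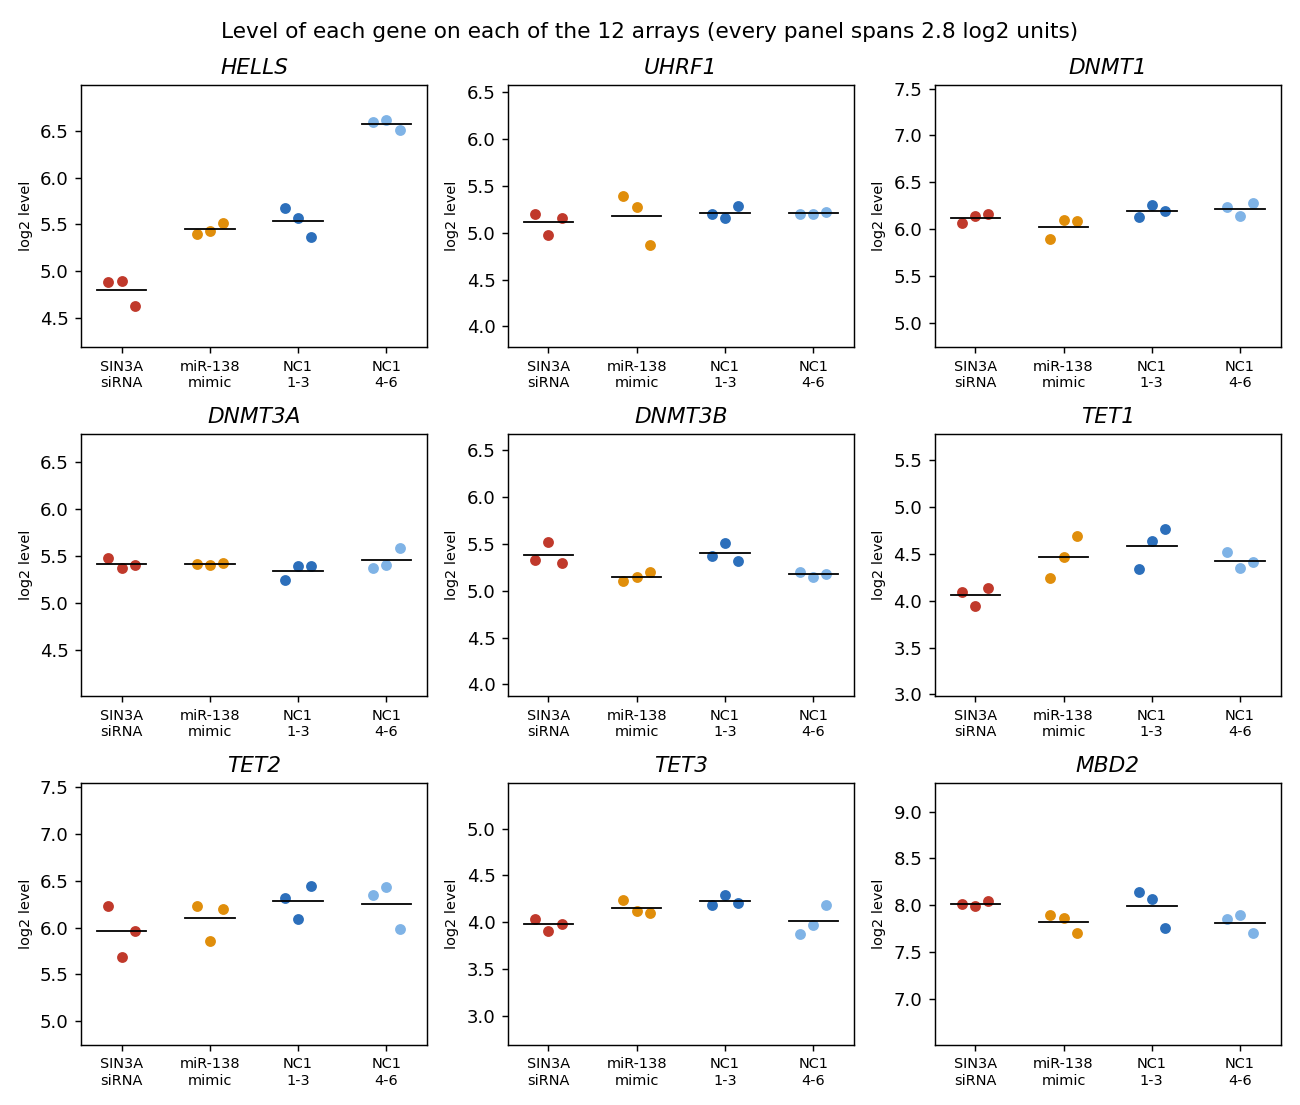
Log2 level of each of the 9 genes (vertical axes) in every array, with siRNA arrays left, then mimic arrays, then NC1 1 to 3 and NC1 4 to 6. Points are arrays, lines are set means and every panel has the same span: HELLS lies between 4.63 and 4.90 in siRNA arrays and between 6.51 and 6.61 in NC1 4 to 6, and DNMT3A stays between 5.24 and 5.59 throughout.

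UHRF1 and DNMT1 maintain methylation at replication, and neither passed the test with either treatment. UHRF1 had 5.20, 4.98 and 5.16 in siRNA arrays and 5.39, 5.28 and 4.87 in mimic arrays. In NC1 arrays 1 to 3 it had 5.20, 5.16 and 5.29, and in NC1 arrays 4 to 6 it had 5.20, 5.20 and 5.22. The groups overlapped.

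For UHRF1 the siRNA difference from NC1 was -0.10 (95% interval -0.32 to 0.11, limma adjusted p = 0.703). The mimic difference was -0.03 (-0.25 to 0.18, limma adjusted p = 0.946), and it was 0.12 without mimic array 3, the lowest of all 12. A further UHRF1 probe set gave -0.12 with the siRNA and -0.09 with the mimic.

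DNMT1 had 6.06, 6.14 and 6.16 in siRNA arrays and 5.89, 6.10 and 6.08 in mimic arrays. Its NC1 levels were 6.13, 6.26 and 6.19 in arrays 1 to 3 and 6.23, 6.14 and 6.28 in arrays 4 to 6. Every mimic array lay below every NC1 array, while siRNA and NC1 arrays overlapped. The mimic difference was -0.18 (SE 0.07, 95% interval -0.34 to -0.03), with an unadjusted p of 0.0261 and a limma adjusted p of 0.340, so it did not pass. The siRNA difference was -0.09 (-0.25 to 0.07, limma adjusted p = 0.644).

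DNMT3A and DNMT3B, the enzymes for unmodified sites, did not pass either. DNMT3A had 5.48, 5.37 and 5.40 in siRNA arrays and 5.41, 5.40 and 5.42 in mimic arrays. The NC1 arrays had 5.24, 5.39 and 5.39 in the set of arrays 1 to 3 and 5.37, 5.40 and 5.59 in the set of arrays 4 to 6. Its difference from NC1 was 0.02 with the siRNA (95% interval -0.15 to 0.19, limma adjusted p = 0.936) and 0.01 with the mimic (-0.16 to 0.18, limma adjusted p = 0.980).

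DNMT3B levels differed between the sets of NC1 arrays. It had 5.33, 5.52 and 5.30 in siRNA arrays and 5.10, 5.15 and 5.20 in mimic arrays. In NC1 arrays 1 to 3 it had 5.37, 5.51 and 5.32, and in NC1 arrays 4 to 6 it had 5.20, 5.15 and 5.18. The siRNA arrays thus overlapped with NC1 1 to 3 and the mimic arrays with NC1 4 to 6, while those NC1 sets did not overlap each other.

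The siRNA difference of DNMT3B was 0.09 (95% interval -0.10 to 0.28, limma adjusted p = 0.704), which was -0.02 for NC1 1 to 3 and 0.20 for NC1 4 to 6 taken alone. Its mimic difference was -0.14 (-0.34 to 0.05, limma adjusted p = 0.619), which was -0.25 for NC1 1 to 3 and -0.03 for NC1 4 to 6 taken alone. Mimic minus siRNA was -0.23 (-0.46 to -0.01, limma adjusted p = 0.338), and -0.01 with the array set as a block. NC1 4 to 6 minus NC1 1 to 3 was -0.22, opposite in sign to HELLS.

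Of the enzymes that oxidise 5-methylcytosine, TET1 was lower with the siRNA. It had 4.09, 3.95 and 4.14 in siRNA arrays and 4.24, 4.47 and 4.69 in mimic arrays. Its NC1 levels were 4.34, 4.64 and 4.77 in arrays 1 to 3 and 4.52, 4.35 and 4.41 in arrays 4 to 6. All siRNA arrays lay below all mimic and NC1 arrays, and the NC1 sets overlapped.

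TET1 averaged 73.4% of its NC1 level with the siRNA, a log2 difference of -0.45 (SE 0.11, 95% interval -0.69 to -0.20, limma adjusted p = 0.0413). It was the 1 gene of the 8 tested that passed, against a background of 4.01% of all genes called in either direction and 1.66% called lower. With NC1 1 to 3, as in the block fit, the difference was -0.52 (limma adjusted p = 0.0205, background 5.7%). With NC1 4 to 6 it was -0.37 and did not pass (limma adjusted p = 0.0704, background 11.4%).

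The TET1 call rested on single arrays. It was kept in 5 of the 12 fits that left out 1 array. It was lost without siRNA array 1, 2 or 3 (limma adjusted p of 0.116, 0.193 and 0.111), without mimic array 2 (0.0626) and without NC1 array 2, 4 or 6 (0.0676, 0.0683 and 0.0561). The sign was negative in all 12 fits. The TET1 probe set had a mean level of 4.38, below the array medians, and the deposited values carry no detection call. With the mimic, TET1 differed from NC1 by -0.04 (95% interval -0.28 to 0.20, limma adjusted p = 0.946), and mimic minus siRNA was 0.41 (0.13 to 0.69, limma adjusted p = 0.148), so the difference between the treatments did not pass.

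TET2 had 6.23, 5.69 and 5.96 in siRNA arrays and 6.23, 5.86 and 6.20 in mimic arrays. The NC1 arrays had 6.31, 6.09 and 6.44 in the set of arrays 1 to 3 and 6.35, 6.43 and 5.98 in the set of arrays 4 to 6. The groups overlapped. Its siRNA difference was -0.31 (95% interval -0.59 to -0.02, limma adjusted p = 0.260) and its mimic difference -0.17 (-0.46 to 0.11, limma adjusted p = 0.715). A further TET2 probe set gave 0.04 with the siRNA and 0.15 with the mimic, opposite in sign.

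TET3 had 4.04, 3.91 and 3.98 in siRNA arrays and 4.24, 4.12 and 4.10 in mimic arrays. In NC1 arrays 1 to 3 it had 4.18, 4.29 and 4.21, and in NC1 arrays 4 to 6 it had 3.88, 3.97 and 4.18. Like DNMT3B it was lower in NC1 4 to 6 than in NC1 1 to 3, although the nearest arrays of the sets differed by less than rounding shows, both at 4.18. The siRNA difference was -0.14 (95% interval -0.34 to 0.06, limma adjusted p = 0.512), or -0.25 with NC1 1 to 3 and -0.03 with NC1 4 to 6 taken alone, and the mimic difference 0.04 (-0.16 to 0.24, limma adjusted p = 0.935).

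MBD2, the reader of methylated CpG, had 8.01, 7.99 and 8.04 in siRNA arrays and 7.90, 7.86 and 7.70 in mimic arrays. Its NC1 levels were 8.14, 8.07 and 7.76 in arrays 1 to 3 and 7.85, 7.89 and 7.70 in arrays 4 to 6. Its differences were 0.11 with the siRNA (95% interval -0.10 to 0.32, limma adjusted p = 0.657) and -0.08 with the mimic (-0.29 to 0.13, limma adjusted p = 0.844). Each treatment overlapped with NC1, while the mimic arrays all lay below the siRNA arrays.

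**Figure D2:**
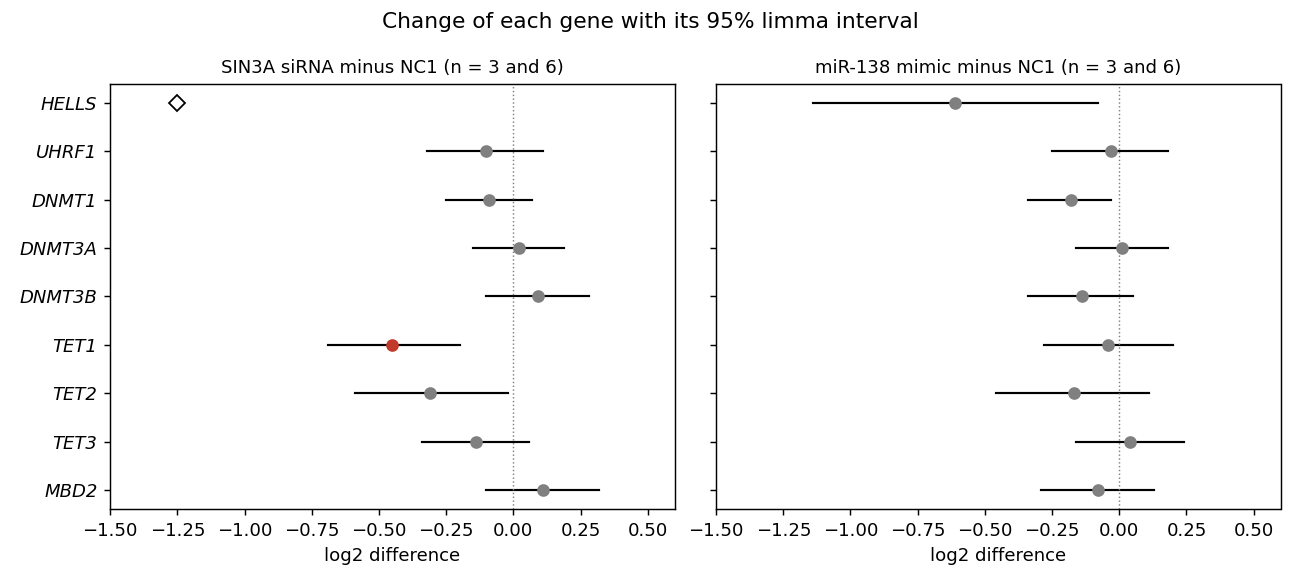
Log2 difference from NC1 (horizontal axes) for the 9 genes, with SIN3A siRNA in the left panel and the miR-138 mimic in the right, and lines for 95% limma intervals. HELLS with the siRNA, at -1.25, is an open diamond with no interval because it was chosen for that value, and TET1 with the siRNA, at -0.45 and in red, is the gene that passed.

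With the mimic none of the 8 genes other than HELLS passed in the limma fit, where 1.04% of all genes did in either direction and 0.402% lower, while DNMT1 was under an unadjusted p of 0.05. None of the 8 passed with the array set as a block, where 3.49% of all genes did, or against NC1 1 to 3, where 8.55% did. Between mimic and siRNA none of the 8 tested genes passed in the limma fit, where 1.57% of all genes did, or with the array set as a block, where 2.09% did. TET1 and DNMT3B were under an unadjusted p of 0.05 in the fit without the block, and TET1 and TET3 with it. For TET3 mimic minus siRNA was 0.18 without the block (95% interval -0.05 to 0.41, limma adjusted p = 0.530) and 0.39 with it (0.11 to 0.67, limma adjusted p = 0.168).

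By position alone, HELLS and TET1 of the 9 genes lay below all NC1 arrays with the siRNA, where 3.53% of all genes did, and HELLS was chosen for it. DNMT1 lay below all NC1 arrays with the mimic, where 2.54% of all genes did. Mimic and siRNA arrays did not overlap for 5 of the 9 genes, where 26.4% of all genes did not: HELLS, TET1 and TET3 were higher with the mimic, and DNMT3B and MBD2 lower. HELLS was chosen for its low siRNA levels, so nothing is read from its place in this count. The NC1 sets did not overlap for 3 of the 9, where 22.4% of all genes did not, with HELLS higher and DNMT3B and, by less than rounding shows, TET3 lower in NC1 4 to 6.

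**Figure D3:**
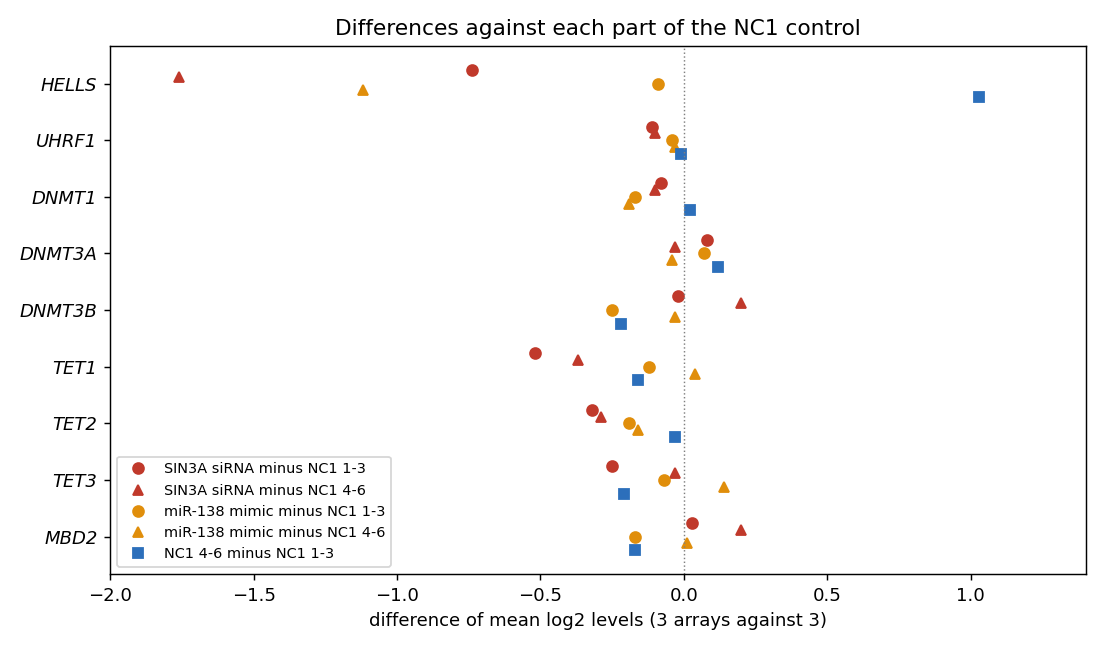
Log2 difference of the 9 genes with SIN3A siRNA and with the miR-138 mimic, each relative to NC1 1 to 3 (circles) and NC1 4 to 6 (triangles), and of NC1 4 to 6 minus NC1 1 to 3 (squares). For HELLS the siRNA values are -0.74 and -1.76, the mimic values -0.09 and -1.12, and the NC1 sets differ by 1.03.

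CDCA7, the zinc-finger protein that recruits HELLS, was also lower with the siRNA. It had 5.25, 5.12 and 5.22 in siRNA arrays and 5.29, 5.36 and 5.38 in mimic arrays. The NC1 arrays had 5.73, 5.79 and 5.33 in the set of arrays 1 to 3 and 5.87, 5.90 and 5.84 in the set of arrays 4 to 6. Every siRNA array lay below every NC1 array, and NC1 array 3 lay among the mimic arrays.

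CDCA7 fell by 0.54 with the siRNA (SE 0.11, limma adjusted p = 0.0129), with a call that was lost without siRNA array 2 or 3 (adjusted p up to 0.0756) and kept with the array set as a block (-0.42, adjusted p = 0.0296). With the mimic its difference was -0.40 (limma adjusted p = 0.109), and -0.53 with the array set as a block (adjusted p = 0.00869). Its paralog CDCA7L fell by 0.83 with the siRNA (SE 0.21, limma adjusted p = 0.0367), a call kept in 3 of 12 fits without 1 array and lost without any 1 siRNA array, any 1 mimic array or NC1 array 4, 5 or 6, with adjusted p up to 0.153. With NC1 1 to 3 alone CDCA7L differed by -0.43 and with NC1 4 to 6 alone by -1.23. Its siRNA call was kept with the array set as a block (-0.43, limma adjusted p = 0.0343). ZBTB24, the transcription factor that switches CDCA7 on in human and mouse cells, differed from NC1 by 0.09 with the siRNA (limma adjusted p = 0.704) and 0.05 with the mimic (limma adjusted p = 0.898).

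**Figure D4:**
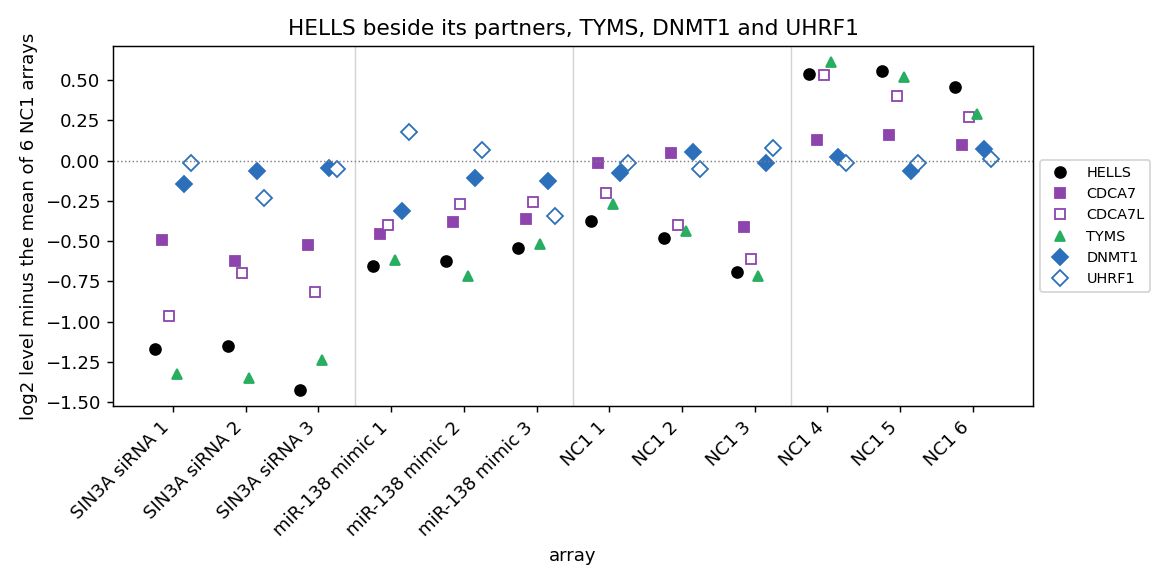
Log2 level minus the mean of the 6 NC1 arrays (vertical axis) in each array for HELLS, CDCA7, CDCA7L, TYMS, DNMT1 and UHRF1, with siRNA arrays left, then mimic and NC1 arrays. HELLS, CDCA7L and TYMS lie above 0 in NC1 4 to 6 and below 0 in NC1 1 to 3, while DNMT1 and UHRF1 stay near 0 in both.

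CDCA7 and CDCA7L belonged to a list of 45 partners of the methylation enzymes, writers and readers of the marks they use, and enzymes of the methyl and 2-oxoglutarate supply. This list and the related lists below were chosen with earlier results of these data known, so their counts are descriptions beside the share of all genes. Of 41 measured, 2 rose and 4 fell with the siRNA, where 4.01% of all genes passed in either direction, and the list's median difference was -0.05, against -0.01 over all genes. MAT2B, the regulatory subunit of S-adenosylmethionine synthesis, had 5.93, 5.99 and 6.00 in siRNA arrays, against 6.36 to 6.82 in NC1 arrays. Its difference of -0.53 (SE 0.09, limma adjusted p = 0.00721) passed in all 12 fits without 1 array and with the array set as a block (-0.47, adjusted p = 0.0148).

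ATRX, the SNF2-family partner of DAXX, fell by 0.62 with the siRNA (SE 0.14, limma adjusted p = 0.0245). The ATRX call was lost without any 1 siRNA array (adjusted p up to 0.118) and with the array set as a block (-0.44, adjusted p = 0.0644). The members of the list that rose, named here after their values were seen, were GADD45A, a stress-induced DNA repair and demethylation factor, by 0.70 (limma adjusted p = 0.0376), and the histone demethylase KDM1B by 0.37 (limma adjusted p = 0.0422). They passed in 3 and 4 of the 12 fits without 1 array, and neither passed when any 1 siRNA array or NC1 array 4, 5 or 6 was left out, with adjusted p up to 0.183 for GADD45A and up to 0.243 for KDM1B. Both calls were also lost without mimic array 1 or 2, and that of GADD45A without mimic array 3. With the array set as a block KDM1B did not pass (0.27, adjusted p = 0.131) and GADD45A did (0.36, adjusted p = 0.0359).

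With the mimic, 0 of the 41 rose and 2 fell, where 1.04% of all genes passed, with a median of -0.05. PCNA, the replication clamp to which DNMT1 binds, had 5.17, 5.05 and 5.14 in mimic arrays, against 5.71 to 6.84 in NC1 arrays. Its difference was -1.19 (SE 0.20, limma adjusted p = 0.0091) with the mimic, or -0.82 with NC1 1 to 3 and -1.55 with NC1 4 to 6 taken alone, and -0.71 (limma adjusted p = 0.0583) with the siRNA. IDH2, a mitochondrial source of 2-oxoglutarate, had 5.84, 5.73 and 5.63 in mimic arrays, 6.32, 6.38 and 6.34 in siRNA arrays, and 5.98 to 6.44 in NC1 arrays. It fell by 0.56 with the mimic (SE 0.10, limma adjusted p = 0.0119), and mimic minus siRNA was -0.62 (limma adjusted p = 0.0173). With the array set as a block IDH2 differed from NC1 by -0.44 with the mimic and by -0.06 with the siRNA. The gap between the treatments was thus smaller with the block, and its call in that fit is not given here. The calls of PCNA and IDH2 against NC1 were lost without any 1 mimic array (adjusted p up to 0.0693 for PCNA and 0.103 for IDH2), and both passed with the array set as a block.

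Of 29 measured SNF2-family remodelers other than HELLS, 1 rose and 2 fell with the siRNA, where 4.01% of all genes passed, with a median of -0.05. Beside ATRX these were the SWI/SNF ATPase SMARCA2, lower by a log2 difference of -0.52 (SE 0.12, limma adjusted p = 0.0249), and CHD7, which rose by 0.28 (SE 0.07, limma adjusted p = 0.0445). SMARCA2 no longer passed without any 1 siRNA array or NC1 array 6 (adjusted p up to 0.128), and CHD7 passed in 2 of 12 fits, those without NC1 array 1 or 3. None of the 3 passed with the array set as a block. With the mimic 0 of 29 passed in limma, where 1.04% of all genes did, with a median of 0.00. Under an unadjusted p of 0.05 were 2 of them, ERCC6L at -0.41 (limma adjusted p = 0.0524) and HLTF at -0.45 (limma adjusted p = 0.135). With the array set as a block 1 rose and 3 fell with the mimic, where 3.49% of all genes passed.

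HELLS transcripts are abundant in growing cells, so a list of S phase genes was read beside it. The list was chosen with earlier results of these data known. It holds TYMS and POLA1, whose levels ran most like HELLS, so its counts are no independent test. Of 47 measured S phase genes 8 fell and 0 rose with the siRNA, where 1.66% of all genes were called lower, and the median difference was -0.26, against -0.01 over all genes. With the mimic 2 fell and 0 rose, where 0.402% of all genes were called lower, with a median of -0.22. Those 2 were E2F8 and PCNA, and PCNA is the same gene that was counted among the partners. The counts depended on the NC1 set. With the siRNA, 6 fell and 1 rose relative to NC1 1 to 3 (median -0.10, 5.7% of all genes called in either direction), and 30 fell and 0 rose relative to NC1 4 to 6 (median -0.42, 11.4% of all genes). With the mimic, 2 fell and 3 rose relative to NC1 1 to 3 (median -0.09, 8.55% of all genes), and 22 fell and 0 rose relative to NC1 4 to 6 (median -0.39, 3.49% of all genes).

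The transcriptional repressor E2F8 had 5.37, 5.30 and 5.38 in siRNA arrays and 5.23, 5.19 and 5.28 in mimic arrays, against 5.74 to 6.22 in NC1 arrays. It fell by 0.65 with the siRNA (SE 0.09, limma adjusted p = 0.00238) and by 0.76 with the mimic (SE 0.09, limma adjusted p = 0.00159), and passed in all 12 fits without 1 array in both comparisons. GINS1, a subunit of the replicative helicase, differed from NC1 by -0.73 with the siRNA (limma adjusted p = 0.011), and its call was lost without siRNA array 2 or 3 (adjusted p up to 0.0756). With the array set as a block the GINS1 call was kept (-0.64, limma adjusted p = 0.0205). The part of cell number or cell cycle in the HELLS values was not tested.

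The genes whose levels ran most like HELLS over the 12 arrays were TYMS (Pearson r = 0.986), POLA1 (0.98), FAM111B (0.976), LBR (0.976) and NAALADL2 (0.973). They share the arrays with HELLS, were chosen on these values, and carry no test of likeness. TYMS makes thymidylate, POLA1 is the catalytic subunit of the polymerase that starts DNA strands, and LBR is an inner nuclear membrane protein that binds heterochromatin. TYMS had 6.34, 6.32 and 6.43 in siRNA arrays and 7.05, 6.95 and 7.15 in mimic arrays, against 6.95 to 7.40 in NC1 1 to 3 and 7.96 to 8.28 in NC1 4 to 6.

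Like HELLS, all 5 had their lowest mean in siRNA arrays and their highest in NC1 4 to 6. Their choice by Pearson r with HELLS favoured this order, so nothing is read from it. The siRNA difference from NC1 was -1.30 for TYMS (-0.83 with NC1 1 to 3 and -1.78 with NC1 4 to 6 taken alone), -0.92 for POLA1, -1.26 for FAM111B, -0.72 for LBR and -0.80 for NAALADL2. NC1 4 to 6 minus NC1 1 to 3 ran from 0.55 for NAALADL2 to 1.05 for FAM111B. The calls of TYMS (limma adjusted p = 0.00824) and POLA1 (limma adjusted p = 0.0162) with the siRNA were lost without siRNA array 2 for TYMS, at an adjusted p of 0.0536, and without any 1 siRNA array for POLA1, at up to 0.0999. Both passed with the array set as a block (limma adjusted p of 0.000611 for TYMS and 0.00416 for POLA1). The genes were chosen for likeness to HELLS, itself chosen for its siRNA levels, so these calls are no independent test. Among the other methylation genes Pearson r with HELLS over the same arrays lay between -0.45 for DNMT3B and 0.44 for TET2.

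None of the 14 measured subunits of NuRD, the complex that MBD2 recruits, passed in limma with the siRNA, where 4.01% of all genes did. Their median was -0.05, although 4 were under an unadjusted p of 0.05. With the mimic none passed, where 1.04% of all genes did. The median was -0.05 and 0 were under an unadjusted p of 0.05. In a list of 14 genes a count of 0 is near these shares, and nothing is read from it. The subunit with the smallest adjusted p was GATAD2A with the siRNA (0.24, limma adjusted p = 0.147) and CHD3 with the mimic (-0.17, limma adjusted p = 0.524).

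Germline genes that promoter methylation keeps silent in somatic cells were taken as a transcript readout. Of 30 measured, 0 passed in limma with the siRNA, where 4.01% of all genes did. The differences ran from -0.28 to 0.15, with a median of -0.03 and 2 under an unadjusted p of 0.05. With the mimic 0 passed, where 1.04% of all genes did. Here the differences ran from -0.20 to 0.22, with a median of -0.05 and 1 under an unadjusted p of 0.05. In a list of 30 genes a count of 0 is near these shares, and nothing is read from it. TEX15 had the smallest adjusted p with the siRNA (-0.27, limma adjusted p = 0.225), and HORMAD1, a meiotic axis protein, with the mimic (0.22, limma adjusted p = 0.435). The median gene of the list had a mean level of 3.79, and 2 of the 30 reached a mean of 5. DNA methylation itself was not measured.

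**Figure D5:**
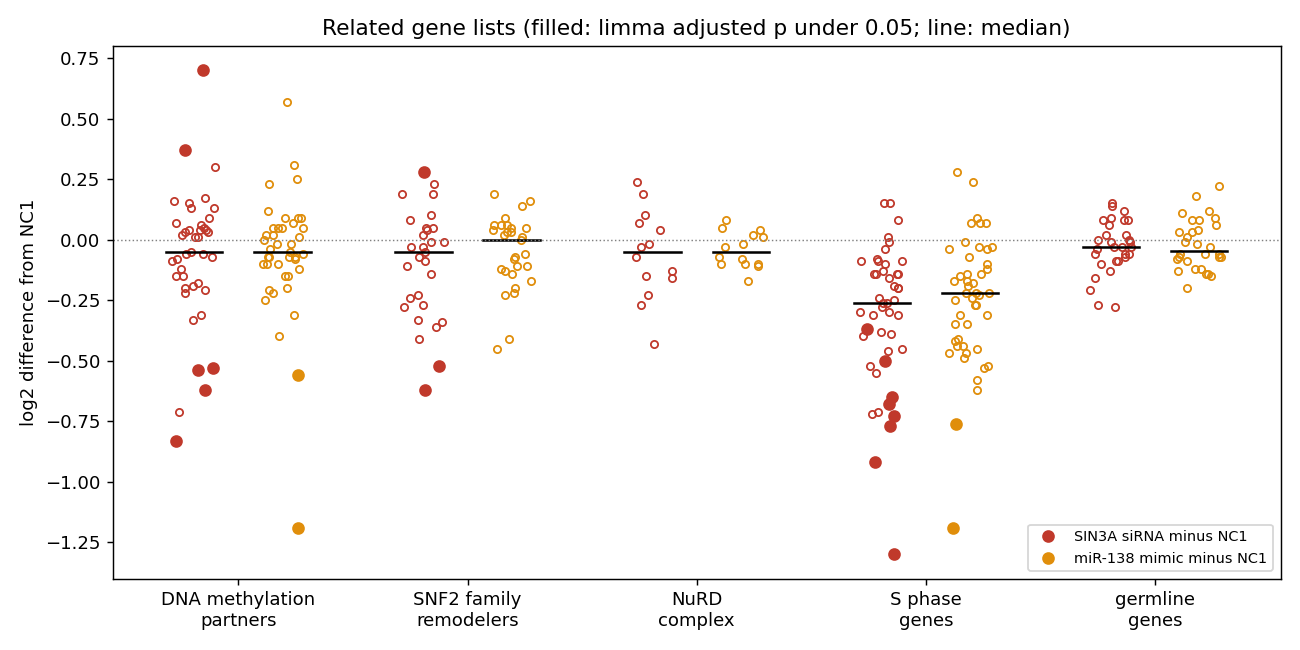
Log2 differences from NC1 (vertical axis) for the genes of the 5 related lists, with SIN3A siRNA left of the miR-138 mimic. Points are genes, filled where the limma adjusted p was under 0.05, and lines are list medians: the S phase genes have medians of -0.26 with the siRNA and -0.22 with the mimic, and the germline genes lie between -0.28 and 0.22.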

How the data were processed

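RNA of 12 Calu-3 cultures was measured on 1-colour arrays. The deposited values are log2 levels, 1 per probe set and array. RMA and Partek 6.3 are named per the submitters' processing notes, with no role or order, so background correction, normalization and probe summary stand as the authors left them. A genome build is not given in the sources used here. All 33297 probe sets were read. A single gene symbol stood on 19460, more than 1 on 1754, and no symbol on 12083. A gene's level was read from the single-symbol probe set with the highest mean over the 12 arrays, which gave 18417 genes, and dim probe sets were kept. Arrays give no counts, so their number limits the precision.

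The linear model had a mean for each of the 3 groups, over all arrays, and 9 residual degrees of freedom (lmFit and eBayes of limma 3.58.1, run in R 4.3.3), with Benjamini-Hochberg adjustment over all genes and a call at an adjusted p under 0.05. Tests are two-sided, errors of differences are SE of the fit, intervals are 95%, and spreads of groups are SD. The share of all genes under an unadjusted p of 0.05 was not counted, so counts under it are descriptions. Groups and replicate numbers come from the sample titles. Both comparisons with NC1 share the 6 NC1 arrays. The code was tested on simulated data.

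The genes, the gene lists and the split of the NC1 arrays were chosen with earlier results of these data known. Named genes were the 9 genes, SIN3A, up to 4 genes per list and comparison with the smallest adjusted p, and the 5 with the highest Pearson r with HELLS. Alternatives were either NC1 set alone, the array set or the replicate number as a block, a second quantile normalization, a mean level of at least 5, the mean of a gene's probe sets, only the arrays compared, and 1 array left out. Promoter and microRNA sequences are from RefSeq (GRCh38.p14).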

Additional observations from a re-analysis of the deposited data

How the results depend on the processing

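Of the 8 genes tested with the siRNA, the 1 call (TET1) became 0 against NC1 4 to 6, with only the arrays compared (adjusted p = 0.0578), and at a mean level of at least 5, where 6 genes were tested and TET1 was not among them. Without 1 array the count was 0 to 1. With the mimic the count of 0 of 9 became 1 (HELLS, for which the same NC1 arrays entered the choice, so that the call is no independent test) against NC1 4 to 6 and with the array set as a block, and without 1 array it was 0. Over the 155 genes of the 5 related lists, the 16 calls with the siRNA became 53 against NC1 4 to 6, 9 with the replicate block and 6 with only the arrays compared, and 3 (without siRNA array 2 or 3) to 23 (without NC1 array 3) without 1 array. The 3 calls with the mimic became 9 against NC1 1 to 3, 30 against NC1 4 to 6 and with the array set as a block, 8 with the replicate block and 7 after a second quantile normalization, and 1 (without mimic array 1 or 2) to 11 (without NC1 array 3) without 1 array. The 2 calls between mimic and siRNA became 12 with the array set as a block, 11 with the replicate block, 5 after a second quantile normalization, 4 of 111 genes at a mean level of at least 5 and 19 with only the arrays compared, and 0 to 4 without 1 array. The share of all genes called moved as well. With the siRNA it was 4.01% in the main fit and 11.4% against NC1 4 to 6. With the mimic it was 1.04%, or 8.55% against NC1 1 to 3 and 3.49% with the array set as a block. Between mimic and siRNA it was 1.57%, or 2.09% with the block. For the other fits that share was not counted, so their counts are not read as a result about the lists. The cause was not tested.

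Log2 differences that changed sign were these. With the siRNA, DNMT3A was -0.035 against NC1 4 to 6 and ran from -0.009 to 0.063 without 1 array, and DNMT3B was -0.021 against NC1 1 to 3, with the array set as a block and with the replicate block. With the mimic, against NC1 4 to 6 and with the array set as a block, DNMT3A was -0.045, TET1 0.04 and MBD2 0.006. TET3 was -0.07 against NC1 1 to 3 and with the replicate block. Without 1 array, UHRF1 ran from -0.14 to 0.12, DNMT3A from -0.018 to 0.053, TET1 from -0.15 to 0.072 and TET3 from -0.01 to 0.071. For mimic minus siRNA, HELLS was -0.39 with the array set as a block, and without 1 array UHRF1 ran from -0.035 to 0.22 and DNMT3A from -0.033 to 0.022. Apart from HELLS these were differences that did not pass the test. The replicate block changed no call among the 9 genes (TET1 with the siRNA was -0.52, adjusted p = 0.0232). Same-numbered arrays of the siRNA, the mimic and NC1 1 to 3 did not deviate together over genes (r from -0.10 to 0.03). NC1 4 to 6 was not in that check, so a pairing of its arrays with the mimic arrays was not looked at.

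The number of arrays limits the precision, the array sets are not in the labels, and the labelled replicates give no dates or cultures. The values carry no detection call, so for dim probe sets such as those of TET1 and TET3 signal over background is not known.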
